A study of Mus musculus with 3 samples.

Results

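Primitive red blood cells (RBCs) were examined in embryonic thymic lobes that had been profiled by droplet-based single-cell RNA sequencing. The cells were chosen by their globin counts, so the globin values below describe the choice and were not tested. A barcode was kept when it held at least 200 detected genes, at least 500 unique molecular identifiers (UMIs, each the count of one captured RNA molecule) and under 20% of UMIs from mitochondrially encoded genes. A kept cell was a primitive RBC when alpha and beta globin genes held at least 50% of its UMIs and the embryonic beta globins Hbb-y and Hbb-bh1 together outnumbered the adult beta globins Hbb-bs and Hbb-bt. The remaining cells with at least 50% globin are called definitive RBCs. The choice gave 1286 primitive RBCs and 1465 definitive RBCs of 23220 kept cells, out of 24616 deposited barcodes.

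One library came from each of 3 genotypes, and all lobes were taken at embryonic day 13 to 13.5. The control library was from Tbx1+/+ embryos. The second library was labelled Tbx1neo2/neo2, a hypomorphic line in which a neomycin cassette sits in an intron of Tbx1, a transcription factor gene of the pharyngeal region. The third was labelled Foxn11089/1089, a line homozygous for a small deletion in Foxn1, the transcription factor gene needed for thymic epithelial cells. The labels give the strain of all 3 libraries as C57BL/6. Lobes of every genotype were dissociated with trypsin. How many embryos entered a library, and their sexes, were not given in the sources used here. With 1 library per genotype, no difference between genotypes could be tested, and intervals on counts and shares cover counting error only.

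Tbx1 was checked in every library first. Its level over all kept cells was 1.39 per 1000000 UMIs for control, 4.81 for the Tbx1neo2/neo2 label and 5.43 for the Foxn11089/1089 label. The lowest value was in the control, so the counts did not bear out the label of the Tbx1 library. It is therefore called the library labelled Tbx1neo2/neo2 throughout. The study describes Tbx1 as not expressed in the embryonic thymus. Its cell number for Tbx1neo2/neo2, 5759, is the number of barcodes in this library. It also reports that Tbx1neo2/neo2 lobes lacked most of an epithelial cluster that held Chga in the control. In kept cells that were not RBCs, Chga was at 116, 1.92 and 1127 per 1000000 non-globin UMIs in the same order. In primitive RBCs Tbx1 had 0, 0 and 8 UMIs, where a count of 0 still allows up to 2.65 and 1.40 per 1000000 UMIs in the first pair of libraries by an exact Poisson interval. Counting from the 3′ end does not read the Foxn1 deletion. Foxn1 gave 2, 1 and 38 UMIs in primitive RBCs of the control, Tbx1neo2/neo2-labelled and Foxn11089/1089 libraries.

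Primitive erythroblasts arise in the yolk sac, enter the circulation while they still hold a nucleus, and lose it later in the blood stream. Definitive red cells come from the fetal liver and reach the blood after their nucleus has been expelled. The beta-globin genes lie in one cluster in the order Hbb-y, Hbb-bh1, Hbb-bh2, Hbb-bs and Hbb-bt, and the alpha-like genes Hba-x, Hba-a1 and Hba-a2 lie in another. Hbb-y, Hbb-bh1 and Hba-x encode the epsilon-like, beta H1 and zeta chains of embryonic haemoglobin. Blood in a dissected thymic lobe carries both lineages, and neither is a resident cell of the thymus.

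Of the beta genes that entered the rule, Hbb-y and Hbb-bs are on chromosome 7 of GRCm38, Hbb-y at chr7:103851749-103853216 and Hbb-bs at chr7:103826534-103828096, both on the minus strand. Hba-x at chr11:32276400-32278116 and Hba-a1 at chr11:32283511-32284465 are on the plus strand of chromosome 11. A RefSeq promoter entry was present for 9 of the 10 globin genes. The 120 bases before the RefSeq start are shown for the embryonic gene and the adult gene of each locus with the most UMIs in primitive and in definitive RBCs, respectively, read 5′ to 3′ on each gene's strand. Capitals mark the CACCC motif, the CCAAT box, the GATAA motif and the TATAA box, searched on both strands. The windows are chr7:103853208-103853327 for Hbb-y, chr11:32276480-32276599 for Hba-x, chr7:103827929-103828048 for Hbb-bs and chr11:32283552-32283671 for Hba-a1 (GRCm38.p6).
Hbb-y: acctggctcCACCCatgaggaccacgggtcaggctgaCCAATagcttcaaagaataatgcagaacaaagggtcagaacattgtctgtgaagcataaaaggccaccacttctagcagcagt
Hba-x: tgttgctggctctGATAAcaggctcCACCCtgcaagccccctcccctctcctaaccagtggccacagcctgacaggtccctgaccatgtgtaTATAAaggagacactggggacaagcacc
Hbb-bs: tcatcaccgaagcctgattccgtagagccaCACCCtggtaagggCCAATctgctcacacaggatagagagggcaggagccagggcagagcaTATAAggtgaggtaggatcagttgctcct
Hba-a1: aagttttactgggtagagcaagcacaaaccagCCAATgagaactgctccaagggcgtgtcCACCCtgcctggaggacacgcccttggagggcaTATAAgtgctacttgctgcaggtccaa
CACCC, the core of the site for Krüppel-like factors, stood in all 4 windows, 111 bases before the start in Hbb-y, 95 in Hba-x, 90 in Hbb-bs and 60 in Hba-a1. CCAAT stood 83, 76 and 88 bases before the start in Hbb-y, Hbb-bs and Hba-a1. TATAA, the TATA box, was found in Hba-x, Hbb-bs and Hba-a1 at 28, 29 and 27 bases, and GATAA only in the Hba-x window of these 4. Among 32851 promoter windows of the same length, 31.7% held the CACCC motif, 21.3% the CCAAT box, 10.5% the GATAA motif and 11.8% the TATAA box. The last pair share their final letters. No motif overlapped another in the windows shown, and a match describes letters only.

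Primitive RBCs made up 183 of 5932 kept cells in the control library (3.08%, exact Clopper-Pearson 95% interval 2.66 to 3.56), 121 of 5516 in the library labelled Tbx1neo2/neo2 (2.19%, 1.82 to 2.62) and 982 of 11772 in the Foxn11089/1089 library (8.34%, 7.85 to 8.86). The Foxn11089/1089 share lay above both others beyond counting error. Blood left in the lobes at dissection enters these shares, and its part in them was not tested. Definitive RBCs were also most frequent in the Foxn11089/1089 library, with 158, 242 and 1065 cells in the same order. Among all RBCs the primitive share was 53.7% (48.2 to 59.1) for control, 33.3% (28.5 to 38.4) for the Tbx1neo2/neo2 label and 48.0% (45.8 to 50.2) in the Foxn11089/1089 library. This order depends on the rule, since with embryonic beta globin at 4 times adult or the reverse there were 31 primitive and 155 definitive RBCs in the control, 121 and 242 under the Tbx1neo2/neo2 label and 934 and 1056 in the Foxn11089/1089 library, which puts the control lowest. No barcode was a primitive RBC in more than 1 library, whereas 16, 17 and 24 kept barcodes were shared between pairs of libraries.

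The markers given for these cells were Hbb-y, Hbb-bh1 and Hba-x, all of which entered the globin counts that chose them, so their presence does not check the label. Hbb-y and Hba-x had UMIs in 100% of primitive RBCs in each library, and Hbb-bh1 in 85.8% of control, 92.6% of Tbx1neo2/neo2-labelled and 90.4% of Foxn11089/1089 cells. Hbb-bh1 was scarce all the same, at 0.28%, 0.22% and 0.22% of the UMIs of primitive RBCs, and made up 0.97%, 0.42% and 0.40% of the embryonic beta count, the remainder being Hbb-y. In definitive RBCs Hbb-bh1 had UMIs in 12.7%, 11.6% and 12.6% of cells. Kept cells that were not RBCs had a median globin share of 0.023%, 0.030% and 0.144% and a median depth of 13678, 21167 and 15537 UMIs. Hbb-y UMIs were nevertheless found in 34.5%, 62.1% and 97.7% of them, and in 42.4%, 65.3% and 99.3% of definitive RBCs, so a single Hbb-y UMI is at the background of each library and was not read as expression. Hbb-bh1 was rarer in the cells that were not RBCs, at 1.02%, 0.47% and 5.58%.

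**Figure D1:**
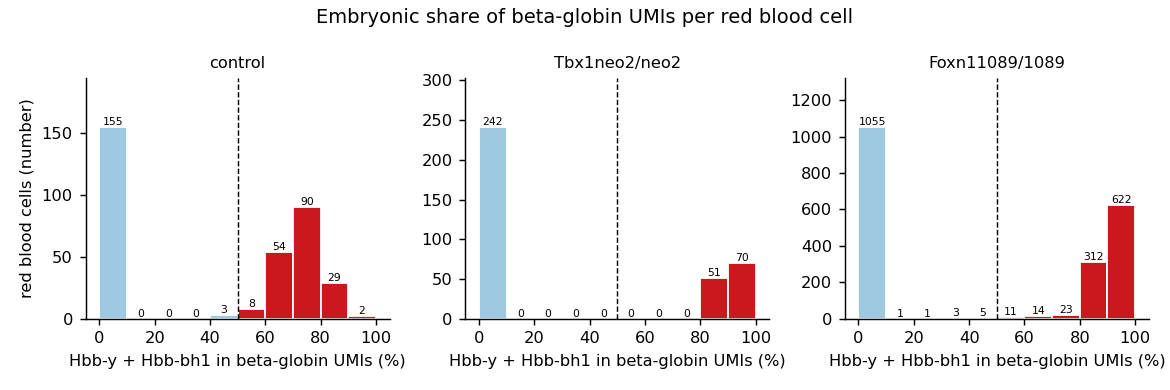
Number of RBCs (y axis) by the share of beta-globin UMIs from Hbb-y and Hbb-bh1 (x axis, percent, bins of 10) in each library, with primitive RBCs in red, definitive RBCs in blue and the dashed line at the 50% limit. Cells form a low and a high group with few between, and the classes meet at the limit in the control and Foxn11089/1089 libraries. The control primitive RBCs peak at 70 to 80% with 90 cells, while 70 Tbx1neo2/neo2-labelled and 622 Foxn11089/1089 cells lie above 90%.

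RBCs fell into a low and a high group by the embryonic share of beta globin, the value that chose them, with few cells between. Between 10 and 40% embryonic there were 0 control cells, 0 cells of the library labelled Tbx1neo2/neo2 and 5 of the Foxn11089/1089 library (1, 1 and 3 cells in successive bins of 10%). Just inside the limit, at 50 to 60% embryonic, lay 8, 0 and 11 cells, and just outside, at 40 to 50%, lay 3, 0 and 5 cells. The globin limit cut a less empty range. At 50 to 60% globin the 3 libraries held 7, 7 and 16 primitive RBCs, and at 40 to 50% globin 9, 1 and 56 cells with more embryonic than adult beta globin. The 16 Foxn11089/1089 cells just inside had a median of 3077.5 detected genes against 529 over all primitive RBCs of that library. Cells with markers of 3 or more other cell type genes made up 2.73%, 9.92% and 7.03% of primitive RBCs, and doublets were not called.

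The embryonic and adult beta chains were mixed to different degrees. Pooled over cells, the embryonic share of beta globin was 72.1% in control primitive RBCs, 89.7% in the library labelled Tbx1neo2/neo2 and 89.6% in the Foxn11089/1089 library. The quartiles of the control cells were 68.3 and 78.8%, below those of the other libraries at 87.6 and 92.0%, and 88.8 and 92.9%. Only 31 of the 183 control cells had at least 4 times as many embryonic as adult beta UMIs, compared with 121 of 121 and 934 of 982. Both kinds of beta chain entered the rule that chose the cells, so these shares are a description. In definitive RBCs the pooled embryonic share was 0.26%, 0.050% and 0.92%.

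**Figure D2:**
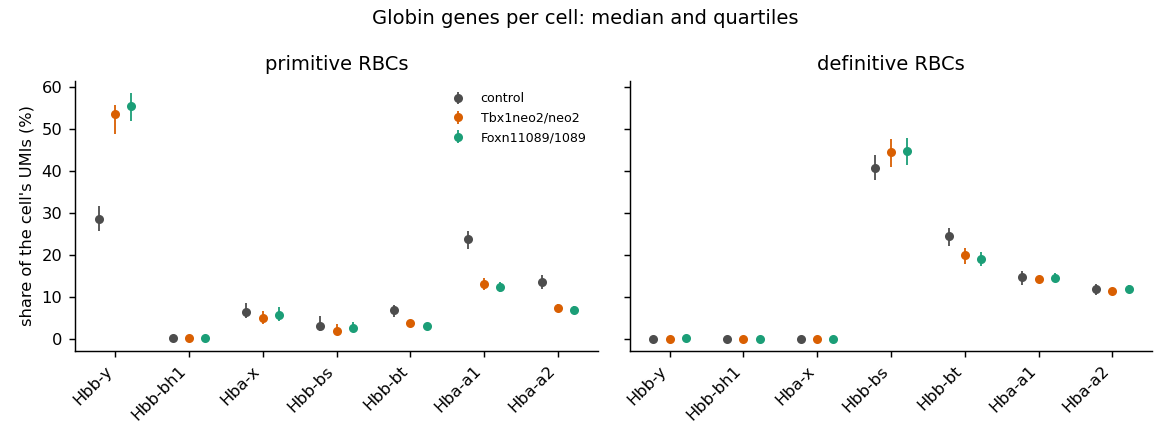
Share of a cell's UMIs (y axis, percent) taken by each globin gene (x axis) in primitive and definitive RBCs, with points at the median over cells and bars from the first to the third quartile, coloured by library. Hbb-y holds a median of 28.4% of UMIs in control primitive RBCs and 53.6% and 55.5% in the other libraries, whose Hba-a1 medians are lower than the control's.

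Among single genes, Hbb-y took a median of 28.4% of the UMIs of a control primitive RBC (quartiles 25.7 and 31.6), 53.6% (48.7 and 55.8) in the library labelled Tbx1neo2/neo2 and 55.5% (52.0 and 58.6) in the Foxn11089/1089 library. Hba-a1, an adult alpha gene, took 23.4%, 12.9% and 12.2% of the pooled UMIs. The control quartile ranges of both genes did not overlap those of the other libraries. Hba-x took a median of 6.37%, 4.87% and 5.69%, with quartile ranges that overlapped, and made up 16.1%, 20.4% and 24.7% of the pooled alpha-globin UMIs. Hbb-bt gave 64.0%, 60.8% and 49.4% of the adult beta UMIs of primitive RBCs but 37.6%, 31.6% and 30.5% in definitive RBCs. Hbb-bs and Hbb-bt, like Hba-a1 and Hba-a2, are near-identical copies whose reads counting can split wrongly, so these splits are uncertain. The rare genes Hbb-bh2, Hbq1a and Hbq1b gave 2, 62 and 80 UMIs in control primitive RBCs, and 30, 554 and 824 in those of the Foxn11089/1089 library.

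The ratio of alpha to beta globin did not enter the rule, but it rests on the same counts and is given as a description. Its median per primitive RBC was 1.12 in the control library (5th to 95th percentile 0.86 to 1.58), 0.43 in the library labelled Tbx1neo2/neo2 (0.32 to 0.78) and 0.41 in the Foxn11089/1089 library (0.32 to 0.54). In definitive RBCs the medians were 0.40, 0.40 and 0.42. The high ratio was therefore seen in control primitive RBCs and not in the definitive RBCs of the same library. Leaving out cells below 4 times more embryonic than adult beta globin left the pooled control ratio at 1.09, from 1.12. Genotype and library cannot be told apart here.

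**Figure D3:**
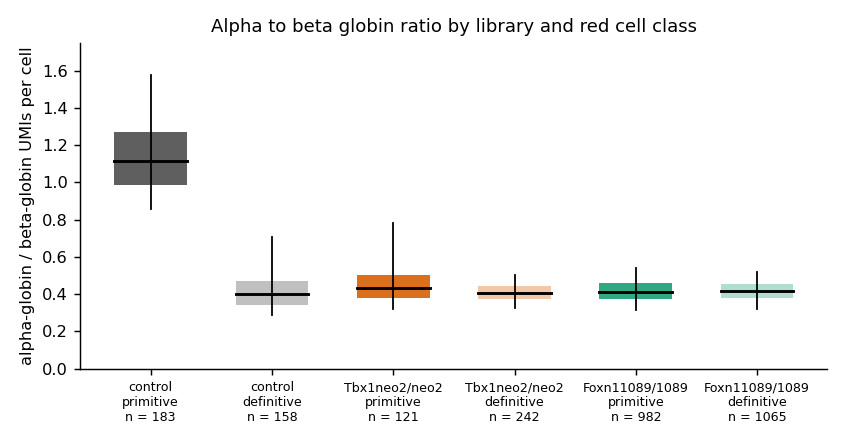
Alpha-globin over beta-globin UMIs per cell (y axis) for primitive and definitive RBCs of each library, with boxes from the first to the third quartile, a line at the median and whiskers from the 5th to the 95th percentile. Control primitive RBCs have a median of 1.12, and the other 5 groups have medians from 0.40 to 0.43.

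Primitive RBCs had more UMIs outside the globins than definitive RBCs, except in the control under the 4 times rule, where the medians were 784 against 833. Under the main rule, median non-globin UMIs per cell were 1024 against 833.5 in the control library, 3158 against 1647 in the library labelled Tbx1neo2/neo2 and 1986 against 945 in the Foxn11089/1089 library. Median detected genes were 320 against 285, 692 against 471, and 529 against 362. After thinning every cell to 1000 UMIs, they were 87 against 55, 94 against 69, and 79 against 68, so primitive RBCs were the higher class in all 3 libraries on both scales (0, 1 and 1 primitive and 0, 0 and 1 definitive RBCs were too shallow and left out). The 1000 UMIs included globins, with median shares of 84.0%, 85.5% and 87.5% in primitive against 92.7%, 90.7% and 91.0% in definitive RBCs. The thinned gene counts therefore also reflect the lower globin share of primitive RBCs. Total UMIs did not follow this order, with medians of 6504 against 12200.5 in the control but 23349 against 17974 and 16136 against 10653 in the others. Primitive RBCs of the control were thus the shallowest of the 3.

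The rest of the transcriptome was compared between primitive and definitive RBCs. UMIs were summed per class and library and the 6 sums were fitted with edgeR's quasi-likelihood test with library as a block, all Hba, Hbb and Hbq genes left out. The spread in this test is that of the class difference over 3 libraries of different genotype, moderated by that of the other genes. No library is a replicate of another. Of 2631 genes tested, 665 were higher in primitive RBCs (25.3% of tested genes) and 725 were lower (27.6%) at a Benjamini-Hochberg adjusted p under 0.05. A called gene is thus common, and the counts for gene groups below are to be read against these percentages and against a median log2 fold change of -0.15 over all tested genes. That median was -0.01 without TMM scaling, so changes near 0.15 depend on the scaling. The excess of lower genes turned as well, to 725 higher and 613 lower without TMM scaling and 736 and 605 with mitochondrial genes left out. Without the control library 930 genes were higher and 713 lower of 4582 tested, without the library labelled Tbx1neo2/neo2 771 and 552 of 4051, and without the Foxn11089/1089 library 572 and 426 of 2162.

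Among the 10 most abundant transcripts outside the globins, mitochondria and ribosomal proteins, Malat1 and Nudt4 had the largest fold changes. Malat1 is a long non-coding RNA that stays in the nucleus and is transcribed at chr19:5795690-5802672. Its level in primitive RBCs was 85748, 76870 and 57249 CPM (counts per 1000000 non-globin UMIs) in the control, Tbx1neo2/neo2-labelled and Foxn11089/1089 libraries, and 4573, 3527 and 4342 in definitive RBCs. The classes lay far apart in every library. The edgeR log2 fold change was 4.01 ± 0.16 (SE), with a Benjamini-Hochberg adjusted p of 7.42e-24. Here and below, the SE was derived from the test's F statistic, whose spread is moderated over all genes. It is not the spread between libraries, in which the Malat1 log2 ratios were 4.23, 4.45 and 3.72. Malat1 UMIs were present in 98.4%, 99.2% and 98.6% of primitive RBCs and in 43.7%, 45.9% and 35.9% of definitive RBCs. The kept cells that were not RBCs had Malat1 levels of 5093, 11147 and 6866 CPM, also below those of primitive RBCs. All 3 nuclear-retained RNAs on the list rose, including Neat1, the RNA of nuclear paraspeckles, from 36.8, 136 and 64.1 CPM in definitive to 678, 905 and 612 in primitive RBCs (edgeR log2 fold change 3.03 ± 0.20, adjusted p = 1.10e-16), and Xist (1.28 ± 0.32, adjusted p = 0.000913).

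The 10 most abundant transcripts outside the globins, mitochondria and ribosomal proteins were Fth1, Ftl1, Malat1, Nudt4, Tpt1, Ubb, Prdx2, H3f3a, Oaz1 and Gm42418. Fth1, the ferritin heavy chain that stores iron, stood at 100801, 86255 and 112533 CPM in primitive RBCs and at 47430, 38044 and 45336 in definitive RBCs (edgeR log2 fold change 1.08 ± 0.13, adjusted p = 5.66e-09). Ftl1, the light chain, was at 71097, 62440 and 77492 against 56107, 59445 and 69192, and did not pass edgeR's test (0.08 ± 0.14, adjusted p = 0.655). Ferritin thus took a large part of the non-globin RNA of primitive RBCs in every library, while only the heavy chain differed by the test. Nudt4, which encodes a diphosphoinositol polyphosphate phosphohydrolase, was at 24212, 18378 and 21510 against 1226, 896 and 1592 CPM (4.01 ± 0.15, adjusted p = 3.85e-24 by edgeR). Tpt1 rose as well (0.76 ± 0.13), Gm42418 was at 0.11 ± 0.13 and did not pass, and Ubb, Prdx2, H3f3a and Oaz1 fell by 0.81, 1.01, 0.84 and 0.81 on the log2 scale, each with the same direction in 3 of 3 libraries. Ferritin genes have many processed copies in the genome, so their counts are less certain than those of other genes.

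The largest fold changes toward primitive RBCs were in genes close to absent from definitive RBCs. Gm2061, a gene model without a named product, had 6, 12 and 72 UMIs in primitive RBCs and 0 in all definitive RBCs, at least 19.6-fold higher against a floor of 3 counts over the definitive libraries together. Trib3, a pseudokinase induced by stress signalling, had 18, 91 and 512 UMIs against 0, 0 and 2, a pooled log2 ratio of 7.66 with an exact conditional binomial interval of 5.80 to 10.7. Lmx1a, a LIM homeobox gene known from the nervous system, had 22, 71 and 276 against 0, 0 and 2 (6.91, interval 5.05 to 9.96). These genes were low but present in primitive RBCs of each library. Fam174b, a membrane protein gene, had 85, 359 and 1315 UMIs against 2, 2 and 9 (edgeR log2 fold change 6.34 ± 0.29, adjusted p = 1.03e-21). Fads2, a fatty acid desaturase, had 9, 21 and 109 against 0, 1 and 0, and Tnfrsf23, a decoy receptor gene of the TNF receptor family, 8, 20 and 91 against 0, 0 and 1 (6.28, 3.77 to 11.6). Pdzk1ip1, a small membrane protein, reached 1468, 1547 and 2431 CPM against 31.6, 25.5 and 66.5 (5.27 ± 0.19, adjusted p = 8.38e-25 by edgeR). Cited4, a transcriptional cofactor, was at 350, 355 and 613 CPM against 5.26, 0 and 16.2. Gfi1b and Gm16062 completed the 10, which together kept their direction and an adjusted p under 0.05 in all 128 refits over 14 alternatives in which they were tested. The refits reused the same cells, and the genes had been picked as the extremes among called genes. Agreement was therefore partly set in advance and is not separate support.

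The largest changes toward definitive RBCs included regulators and membrane genes. Tmem40, a transmembrane protein gene, had 0 UMIs in primitive RBCs of all 3 libraries and 7, 11 and 32 in definitive RBCs, at least 25.5-fold lower against the same floor. Isg20, an exonuclease, had 0, 0 and 1 UMIs against 9, 14 and 94, Sowaha 1, 0 and 1 against 6, 62 and 65, and AI662270 0, 0 and 4 against 7, 78 and 106. Pla2g16, a phospholipase A2, had 2, 0 and 29 against 93, 253 and 888 (edgeR log2 fold change -6.19 ± 0.28, adjusted p = 8.92e-22). Mpp1, a membrane skeleton protein, was at 25.6, 17.0 and 28.8 against 852, 1496 and 1134 CPM, and Ube2c, the ubiquitin-conjugating enzyme of the anaphase-promoting complex, at 59.7, 48.7 and 108 against 2636, 2923 and 3620. Together with Sox6 and Lmo2, described with the regulators, these made up the 10 genes with the lowest fold changes. They kept their direction and call in all 125 refits, over the same 14 alternatives, in which they were tested. These genes were picked as extremes too, so the same limit applies to their refits.

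**Figure D4:**
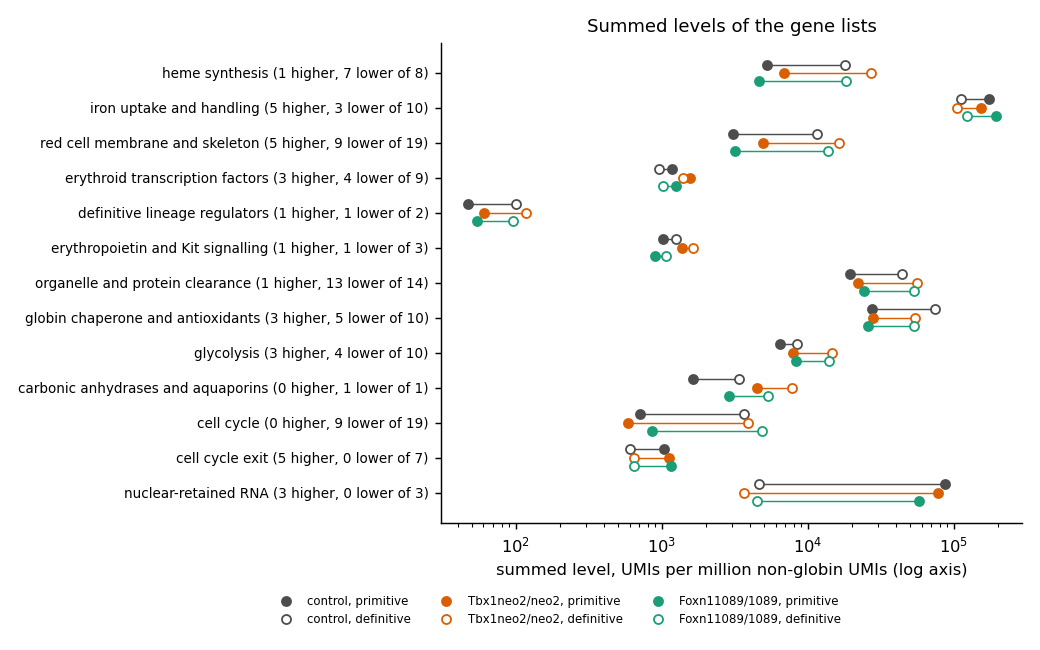
Summed level of each gene list (x axis, CPM, log axis) in primitive (filled) and definitive (open) RBCs of each library, with the number of genes called higher and lower of those tested beside each list name. Nuclear-retained RNA, iron handling, erythroid transcription factors and cell cycle exit lie to the right in primitive RBCs of all 3 libraries, and the other lists to the left. The iron sum is mostly ferritin, as Fth1 and Ftl1 hold 100801 and 71097 of its 174923 CPM in control primitive RBCs. It does not show the direction of the other iron genes.

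Among transcription factors of erythroid cells, 9 of the 12 listed genes were tested, of which 3 rose and 4 fell in primitive RBCs. Tal1, a helix-loop-helix factor required for all blood formation, was at 678, 854 and 665 CPM in primitive and 15.8, 44.7 and 28.4 in definitive RBCs (edgeR log2 fold change 4.38 ± 0.22, adjusted p = 1.32e-20). Gfi1b, a zinc finger repressor, had 9, 23 and 162 UMIs against 0, 0 and 2 (pooled log2 ratio 5.98, exact conditional binomial interval 4.11 to 9.04). Lmo2, the adaptor that joins Tal1 and Gata1 in one complex, went the other way with 0, 4 and 19 UMIs in primitive and 38, 253 and 499 in definitive RBCs (-5.84 ± 0.28, adjusted p = 6.67e-21 by edgeR). Tal1 and Lmo2 therefore moved in opposite directions in all 3 libraries. E2f2, Foxo3 and Klf1, the factor that activates adult beta globin, also fell, by 3.77, 1.14 and 0.72 on the log2 scale, and Klf3 rose by 0.50 ± 0.21 (adjusted p = 0.0423 by edgeR), a call lost without the Foxn11089/1089 library (adjusted p = 0.103). Nfe2 was at 0.27 ± 0.23 and Zfpm1 at -0.13 ± 0.28, neither past the test.

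Of 5 regulators tied to the definitive lineage, only Sox6 and Zbtb7a had enough counts to be tested. Sox6, a repressor of embryonic globin, had 0, 2 and 0 UMIs in primitive RBCs and 5, 36 and 71 in definitive RBCs (pooled log2 ratio -6.42, exact conditional binomial interval -9.49 to -4.54). Zbtb7a, another repressor of embryonic and fetal globin, had 6, 20 and 61 against 4, 4 and 17 and rose by 1.12 ± 0.43 (adjusted p = 0.0272 by edgeR), and by 0.89 with the call lost without the library labelled Tbx1neo2/neo2 (adjusted p = 0.142). Bcl11a had 3, 2 and 38 UMIs against 8, 10 and 22, Runx1 1, 0 and 18 against 0, 1 and 6, and Myb 1, 1 and 5 against 2, 4 and 2. These counts were too low for any statement on a difference.

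Heme is made by 8 enzymes, and 7 of them fell in primitive RBCs while Uros rose. The summed level was 5218, 6803 and 4647 CPM in primitive and 17959, 26963 and 18182 in definitive RBCs, and the median log2 fold change was -1.80. Alas2, the rate-limiting erythroid enzyme, supplied 61.9% of the list's UMIs and was at 3554, 3881 and 2903 against 12602, 16678 and 12588 CPM (edgeR log2 fold change -2.14 ± 0.14, adjusted p = 5.15e-17). Fech, which inserts the iron, was at 922, 1552 and 794 against 3378, 6990 and 3466 (-2.19 ± 0.14, adjusted p = 3.17e-17 by edgeR). Urod fell by 2.35, Alad by 2.03, Ppox by 1.57 and Cpox by 0.82 on the log2 scale. Uros, the fourth enzyme of the pathway, had 11, 31 and 112 UMIs against 5, 15 and 22 (1.15 ± 0.32, adjusted p = 0.00208 by edgeR).

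Iron genes went both ways, with 5 higher and 3 lower of 10 tested. Hmox1, the heme oxygenase that breaks heme down, was at 691, 1516 and 1647 CPM in primitive and 0, 109 and 37.3 in definitive RBCs (edgeR log2 fold change 4.65 ± 0.25, adjusted p = 2.32e-19). Slc40a1, the iron exporter ferroportin, had 15, 30 and 112 UMIs against 1, 5 and 9 and rose by 2.69 ± 0.40, and Abcb10, a mitochondrial transporter, rose by 2.41 ± 0.27. Slc25a37, the mitochondrial iron importer mitoferrin, was at 294, 599 and 416 against 3552, 3191 and 3476 CPM (-3.10 ± 0.16, adjusted p = 1.92e-20 by edgeR). Slc25a38, a mitochondrial glycine transporter, rose by 1.64 ± 0.46. The iron-sulphur cluster genes Iscu and Glrx5 were the other lower ones, at -2.96 ± 0.18 and -1.41 ± 0.13. Tfrc, the transferrin receptor, was at -0.20 ± 0.28 and did not pass the test.

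All 19 genes of the red cell membrane and its skeleton were tested, with 5 higher, 9 lower and a median of -0.47. Cd47, the signal that keeps macrophages from engulfing red cells, fell by 3.75 ± 0.23 on the log2 scale. Slc4a1, the anion exchanger band 3, was the most abundant of the list in primitive RBCs, at 887, 1299 and 683 against 1147, 1822 and 831 CPM (-0.50 ± 0.13, adjusted p = 0.00170 by edgeR), a call lost without the Tbx1neo2/neo2-labelled library (adjusted p = 0.34) or without the Foxn11089/1089 library (adjusted p = 0.153). Epb41 and Rhd fell by 1.77 and 1.59. Add2, Ermap, Gypc, Kel and Epb42 were the 5 that rose, by 1.61, 1.51, 1.47, 0.75 and 0.52.

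Genes for clearing organelles and proteins were lower in primitive RBCs in 13 of 14 tested, with a median of -1.49 and summed levels of 19387, 22052 and 24156 against 43794, 56056 and 53010 CPM. Mkrn1, a ubiquitin ligase, was at 1148, 1122 and 1485 against 8640, 12593 and 11990 (edgeR log2 fold change -3.26 ± 0.15, adjusted p = 1.29e-21). Bnip3l, the receptor that removes mitochondria from maturing red cells, fell by 1.13 ± 0.14, Ube2l6 by 1.42 ± 0.13 and Map1lc3b by 0.50 ± 0.13. The Map1lc3b call was lost without the Tbx1neo2/neo2-labelled or the Foxn11089/1089 library (edgeR adjusted p = 0.234 and 0.267). Mitochondrially encoded transcripts were also a smaller part of the non-globin RNA of primitive RBCs, at 1.18%, 3.53% and 2.29% against 2.67%, 9.12% and 7.17%, and all 13 such genes fell, with mt-Nd3 losing its call without the Foxn11089/1089 library (edgeR adjusted p = 0.167). Ribosomal protein transcripts were a larger part, at 20.5%, 21.6% and 21.0% against 16.4%, 12.9% and 14.1%, with 53 of 87 genes higher and 5 lower.

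Of the antioxidant genes, 3 of 10 tested rose and 5 fell. Gpx1, a glutathione peroxidase, was at 8004, 6737 and 5298 CPM in primitive RBCs against 42721, 25615 and 24749 in definitive RBCs (edgeR log2 fold change -2.30 ± 0.14, adjusted p = 3.61e-18). Prdx2 and Blvrb fell by 1.01 and 0.65 on the log2 scale, and Gpx4, which protects membrane lipids, rose by 0.55 ± 0.13. Glycolytic genes were divided, with 3 higher and 4 lower of 10 tested. Bpgm, which makes the 2,3-bisphosphoglycerate that lowers the oxygen affinity of haemoglobin, was at 2112, 4574 and 4226 against 4109, 11486 and 10893 CPM (-1.35 ± 0.14, adjusted p = 3.36e-11 by edgeR). Slc2a1, the glucose transporter Glut1, had 6, 6 and 40 UMIs against 30, 367 and 307 and fell by 4.32 ± 0.28. Gapdh and Aldoa rose by 0.39 each, Aldoa in 2 of 3 libraries, and Ldha fell by 0.73. All 3 calls were lost without the Foxn11089/1089 library (edgeR adjusted p = 0.0772, 0.0834 and 0.269), and those of Aldoa and Ldha also without the library labelled Tbx1neo2/neo2 (edgeR adjusted p = 0.0931 and 0.101). Car2, the carbonic anhydrase that made up 99.4% of its list, was at 1638, 4492 and 2839 against 3347, 7710 and 5317 CPM and fell by 1.02 ± 0.13 (adjusted p = 6.93e-09 by edgeR). Its adult counterpart Car1 had 0 UMIs in all primitive RBCs and 2, 28 and 24 in definitive RBCs.

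Of the cell cycle genes tested, 9 of 19 fell in primitive RBCs and 0 rose. The list summed to 704, 584 and 859 CPM in primitive and 3667, 3914 and 4870 in definitive RBCs, most of the latter from Ube2c, and to 3854, 4105 and 3975 in kept cells that were not RBCs. Rrm2, a ribonucleotide reductase subunit, fell by 2.75 ± 0.27, Tyms by 1.94 ± 0.31, Top2a by 1.28 ± 0.29 and Mki67 by 0.95 ± 0.29, the last lower in 2 of 3 libraries. Birc5, Cenpa and Cdk1 were at -0.58 ± 0.27, 0.05 ± 0.30 and -0.64 ± 0.29 and did not pass the test. The count of lower genes was 5 with DESeq2, 6 without cells that held 3 or more markers of other cell types, and 4 without the Foxn11089/1089 library. Of the genes linked to leaving the cell cycle, 5 of 7 tested rose and 0 fell. Btg1, an antiproliferative factor, was at 269, 302 and 244 CPM against 137, 51.1 and 43.0 (edgeR adjusted p = 1.02e-09), and the cyclin-dependent kinase inhibitors Cdkn2c, Cdkn1b and Cdkn2d rose by 2.43, 1.67 and 0.50 on the log2 scale. The call of Cdkn2d was lost without the Foxn11089/1089 library (edgeR adjusted p = 0.179). Cdkn1c, the most abundant of them, was at -0.09 ± 0.19.

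The erythropoietin and Kit pathway left few counts. Pim1, a kinase induced by cytokine signals, was at 853, 942 and 655 CPM against 568, 587 and 374 (edgeR log2 fold change 0.58 ± 0.14, adjusted p = 0.000688). Bcl2l1, which encodes the survival protein Bcl-xL, was at 111, 248 and 119 against 605, 986 and 620 (-2.39 ± 0.17, adjusted p = 6.65e-16 by edgeR). These neighbours downstream of the same receptor thus differed in direction. Epor itself had 2, 18 and 78 UMIs against 0, 10 and 14 and was not tested.

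Markers of other cell types had UMIs in primitive RBCs of every library. Thymic epithelial markers, all 6 of which had UMIs in every library, summed to 849, 97.3 and 225 CPM in primitive RBCs and to 826, 215 and 259 in definitive RBCs, compared with 2143, 1603 and 1280 in kept cells that were not RBCs. Mesenchymal markers, led by Col3a1, summed to 431, 333 and 467 against 195, 671 and 615, and to 1139, 3138 and 1745 in the other kept cells. Their part in the lists above was not tested. Endothelial markers, with Pecam1 the most abundant, had 6, 15 and 53 UMIs, or 25.6, 36.5 and 23.5 CPM, compared with 81.1, 152 and 113 CPM in the other kept cells. Macrophage markers, led by C1qb, had 9, 5 and 40 UMIs, or 38.4, 12.2 and 17.7 CPM, compared with 78.4, 129 and 107. Megakaryocyte markers, led by Pf4, had 2, 6 and 51 UMIs, or 8.53, 14.6 and 22.6 CPM, compared with 29.7, 51.6 and 36.2. Lymphoid markers, led by Coro1a, had 7, 3 and 35 UMIs, or 29.9, 7.30 and 15.5 CPM, compared with 541, 329 and 112. The levels of these lists in primitive RBCs were thus below those of the other kept cells in each library. The gap was smaller for thymic epithelial and macrophage markers in the control, and for megakaryocyte markers in the Foxn11089/1089 library, than for lymphoid markers. In definitive RBCs lymphoid markers summed to 216, 29.8 and 26.0 CPM, and macrophage markers to 15.8, 183 and 37.3. Endothelial markers there summed to 21.0, 14.9 and 21.9 CPM, and megakaryocyte markers to 5.26, 10.6 and 49.5. Of these, the macrophage value under the Tbx1neo2/neo2 label and the megakaryocyte value in the Foxn11089/1089 library lay above the other kept cells. Of the 6 genes on each list, those at 0 in primitive RBCs numbered 4, 2 and 1 for endothelium, 2, 2 and 0 for macrophages, 4, 4 and 2 for megakaryocytes and 2, 3 and 2 for lymphoid cells, with Tie1, Ppbp and Itgb3 at 0 in all 3 libraries. Without cells that held 3 or more such markers, 684 genes were higher and 673 lower of 2085 tested.

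Primitive RBCs were then compared between libraries, as CPM ratios for genes with at least 100 UMIs in both libraries together. In the library labelled Tbx1neo2/neo2, 77 of 549 genes (14.0%) were more than 2-fold higher than in the control and 8 (1.46%) more than 2-fold lower. In the Foxn11089/1089 library 264 of 1733 genes (15.2%) were higher and 19 (1.10%) lower. Both comparisons used the same control library. Non-globin UMIs numbered 234383 in the control, 410990 in the library labelled Tbx1neo2/neo2 and 2255018 in the Foxn11089/1089 library, so a gene reached the minimum mainly through the deeper library when it was high there, and the excess of higher over lower genes is not a result about the cells. The median log2 ratio was 0.21 and 0.29 among these genes, 0.10 and 0.044 with globins counted in the total, and -0.12 and 0.20 after thinning to 1000 UMIs per cell, which left 79 and 193 genes. After centring on that median, 52 genes were higher and 12 lower in the first comparison, and 151 and 60 in the second, which lowered the share of higher genes among those past 2-fold from 90.6% to 81.2% and from 93.3% to 71.6%. With globins counted in the total, the second comparison gave 163 higher and 53 lower genes. With primitive RBCs of both libraries limited to those with at least 4 times more embryonic than adult beta globin (31 control and 934 Foxn11089/1089 cells), it gave 450 higher and 112 lower of 1589.

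The lowest ratios were shared by both comparisons. Gm42418, a locus that overlaps a ribosomal RNA repeat, had 70568 CPM in control primitive RBCs, 1577 under the Tbx1neo2/neo2 label and 1479 under the Foxn11089/1089 label, log2 ratios of -5.48 (exact conditional binomial 95% interval -5.60 to -5.37) and -5.58 (-5.63 to -5.52). Lars2, a mitochondrial leucyl-tRNA synthetase, was at 3767, 53.5 and 65.2 CPM (ratios -6.14 and -5.85). AY036118 was at 3627, 146 and 175 CPM (ratios -4.63 and -4.37). These 3 loci moved the same way in definitive RBCs, with ratios of -5.85 and -5.69 for Gm42418, and in kept cells that were not RBCs, where Gm42418 was at 6635, 252 and 187 CPM. Krt18, a keratin of epithelial cells, was at 435, 41.4 and 40.4 CPM in primitive RBCs and at 1091, 570 and 218 in the cells that were not RBCs. Stmn1 (-1.44, -2.02 to -0.87) and Krt8 (-1.89, -2.45 to -1.30) were the fifth lowest in each comparison.

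The 5 highest ratios of the library labelled Tbx1neo2/neo2 were in mt-Nd3, mt-Co3, Calr, Hsp90aa1 and Gm10073. The mitochondrially encoded mt-Nd3 and mt-Co3 were at 1185 and 7280 CPM against 124 and 1160 in the control, ratios of 3.26 (2.72 to 3.85) and 2.65 (2.47 to 2.83), and their ratios in definitive RBCs were 3.61 and 2.66. Calr, an endoplasmic reticulum chaperone, had a ratio of 2.63 (1.92 to 3.44) in primitive and 1.92 (1.21 to 2.71) in definitive RBCs. Hsp90aa1, the inducible Hsp90, was at 1114 against 192 CPM, a ratio of 2.54 (2.09 to 3.01), beside 0.55 (-0.02 to 1.16) in definitive RBCs. The intervals of Hsp90aa1 in the classes did not overlap, which covers counting error only. In the cells that were not RBCs Hsp90aa1 was at 1093 against 543 CPM. Gm10073 was at 253 against 46.9 CPM, a ratio of 2.43 (1.53 to 3.48), beside 2.60 (0.96 to 4.93) in definitive RBCs. In the cells that were not RBCs mt-Nd3 was at 2481 against 495 CPM and mt-Co3 at 11870 against 2161. Calr was at 848 against 244 CPM there, and Gm10073 at 147 against 22.7. All 5 genes were thus higher in the rest of the same library too.

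The 5 highest ratios of the Foxn11089/1089 library were in Ccl21a, Chga, Spp1, Sparcl1 and Gstm1. Ccl21a, a chemokine, had 224 UMIs in primitive RBCs and 0 in the control, at least 7.76-fold higher against a floor of 3 counts in the control library. Chga, a neuroendocrine secretory protein, had 603 against 2 (log2 ratio 4.97, interval 3.11 to 8.02), Spp1, osteopontin, 230 against 1 (4.58, 2.09 to 9.89) and Gstm1, a glutathione transferase, 157 against 1 (4.03, 1.53 to 9.34). Sparcl1 had 109 against 0, at least 3.78-fold higher. In kept cells that were not RBCs Chga was at 1127 CPM in the Foxn11089/1089 library and 116 in the control, Ccl21a at 434 and 143, Spp1 at 235 and 7.62, and Sparcl1 at 214 and 36.5, and Gstm1 had UMIs in 46.4% of those of the Foxn11089/1089 library. These genes were higher in the rest of the same library too, and the part of RNA from other cells in the values of primitive RBCs was not tested. Chga UMIs were found in 17.7% of primitive and 18.0% of definitive RBCs of that library, against 26.9% of the cells that were not RBCs.

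**Figure D5:**
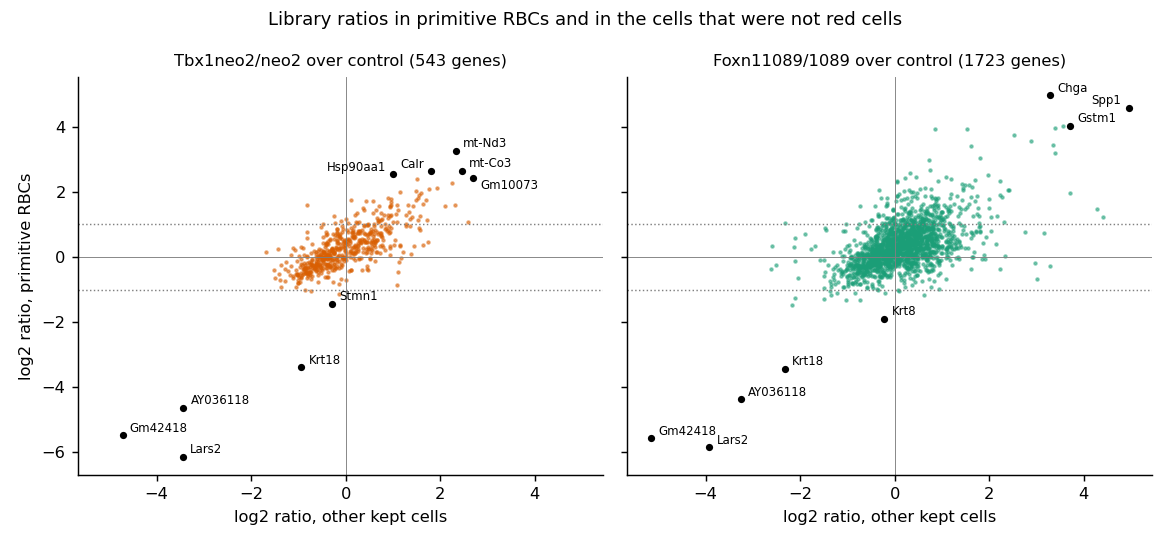
Log2 ratio of a library to the control in primitive RBCs (y axis) against the same ratio in kept cells that were not RBCs (x axis), for 543 and 1723 genes with at least 100 UMIs in both classes and UMIs in every library compared, so Ccl21a and Sparcl1 are not drawn. Black points are the genes with the highest and lowest ratios in primitive RBCs, dotted lines mark 2-fold, and Gm42418, Lars2 and AY036118 lie at the lower left in both panels.

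The genes past 2-fold in primitive RBCs were also read in the other cells of the same libraries. For the library labelled Tbx1neo2/neo2, 34 of the 76 higher genes that had 100 UMIs in the cells that were not RBCs were more than 2-fold higher there as well, and 5 had the opposite sign, where 51 of the 543 genes compared were higher. For the Foxn11089/1089 library it was 74 of 262, with 37 of the opposite sign, where 170 of all genes compared were higher. Of the lower genes, 3 of 8 and 11 of 19 were more than 2-fold lower there as well, with 0 and 3 of the opposite sign, where 33 and 66 of all genes compared were lower. Against definitive RBCs, 35 of 53 and 64 of 152 higher genes with enough counts, and 5 of 7 and 8 of 13 lower genes, were past 2-fold in the same direction, where 58 of 411 and 130 of 1005 genes compared were past 2-fold higher and 21 and 26 past 2-fold lower. The control library is in every one of these ratios.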

How the data were processed

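Thymic lobes of embryonic mice were profiled as 3 droplet libraries, 1 per genotype. The deposited matrices hold UMI counts per gene and barcode, which the authors made with Cell Ranger 3.0.0 against mm10, and the submitters' processing notes also name Seurat. No annotation of cell types was used. Barcodes were filtered and classed by globin counts, and no doublet caller was run. The members, gene lists and tests were chosen with earlier results of these data known.

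Counts were summed per class and library without Hba, Hbb and Hbq genes. The 6 sums were fitted with edgeR 4.0.16 (R 4.3.3, quasi-likelihood test, TMM, library as a block, filterByExpr with a minimum of 10) and adjusted by Benjamini-Hochberg over all tested genes, with calls at 0.05. DESeq2 1.42.0 was an alternative. On simulated sums with 200 changed genes among 2628, 77.2% of 2-fold and 99.8% of 4-fold changes were recovered. The simulation gave all genes the same dispersion and changed equal numbers up and down. In the data far more genes were called, 665 higher and 725 lower, so this recovery may not hold for the actual fit. Libraries were compared as ratios with exact conditional binomial 95% intervals, for genes with at least 100 UMIs. Shares have exact Clopper-Pearson intervals. Bounds against 0 used 3 counts.

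Named by rule were the 10 highest and 10 lowest called genes with the same sign in each library, the 10 most abundant, 4 most abundant per list, and 5 highest and lowest per genotype ratio. Other list members were named after their values were seen. Total UMIs in primitive RBCs were 1392182 (control), 2625810 (Tbx1neo2/neo2 label) and 15905800 (Foxn11089/1089), so the last library sets most of the precision. Promoters are from RefSeq (GRCm38.p6). Some genes of the lists are not reported here.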

Additional observations from a re-analysis of the deposited data

Results flagged for a closer look

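Given here are measures over all cells whose log2 ratio of primitive over definitive RBCs differed in sign between libraries, and named genes whose counting interval lay above 0 in one library and below 0 in another. Other named genes, among them Socs3, Col3a1, Epcam and Cdkn1c, also differed in sign, but without intervals on both sides of 0. None of these differences between libraries was tested. The log2 ratio of median UMIs per cell, primitive over definitive, was -0.91 in the control, 0.38 in the library labelled Tbx1neo2/neo2 and 0.60 in the Foxn11089/1089 library. For the alpha to beta globin ratio the log2 ratios were 1.53, 0.061 and -0.020 in the same order, where the last value is close to 0 and shows no difference in the opposite direction. Col1a1, a fibrillar collagen of mesenchyme, had log2 ratios of 2.14, -1.77 and -0.47, and Col1a2, its partner chain, 2.70, -0.60 and -0.23. In the control these rested on few cells, as 38 Col1a1 UMIs were in 2.19% and 24 Col1a2 UMIs in 2.73% of the 183 primitive RBCs, against 7 and 3 UMIs in definitive RBCs.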

How the results depend on the processing

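The share of primitive RBCs among kept cells was 2.49% in the control, 1.74% under the Tbx1neo2/neo2 label and 7.51% in the Foxn11089/1089 library when at least 80% globin was required. It was 2.98% and 9.51% in the latter libraries with a minimum of 2000 UMIs, 0.52% in the control when embryonic beta globin had to be 4 times adult, and 7.76% in the Foxn11089/1089 library without cells holding 3 or more markers of other types. Between primitive and definitive RBCs, thinning to 1000 UMIs left 120 higher and 118 lower genes of 335 tested. Of the 286 genes called in the main fit and tested there, 226 kept their call and 8 changed sign. DESeq2 called 500 higher and 476 lower genes, and a fit without the library block 450 and 445. Leaving out each library in turn gave 572 to 930 higher and 426 to 713 lower genes. Of the named genes, 23 lost their call without the library block, 8 with DESeq2 and 8 after thinning, with the same direction. AY036118 reversed after thinning, to 0.16 on the log2 scale, and the cause was not tested.

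For the library labelled Tbx1neo2/neo2, 2-fold higher genes numbered 9 after thinning and 28 with a gene minimum of 300 UMIs, and lower genes 5 with 80% globin, 5 without cells with other-type markers, 3 after thinning and 4 at 300 UMIs. For the Foxn11089/1089 library, higher genes numbered 167 with 80% globin, 450 with the 4 times rule, 161 without cells with other-type markers, 27 after thinning, 163 with globins counted in the total, 151 after centring and 77 at 300 UMIs, and lower genes 112 with the 4 times rule, 6 after thinning, 53 with globins counted, 60 after centring and 8 at 300 UMIs. Thinning leaves fewer genes to compare, and control depth limits every ratio to it. For the named genes, 27 of 154 ratios refitted under an alternative moved and 127 stayed. After thinning, all 7 ratios that could be compared moved. Under the 4 times rule 8 moved and 8 stayed, and with 80% globin 5 moved and 6 stayed.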
